A study of Mus musculus with 2 samples.

Results

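The 7 genes described here are a secreted factor, Fgf5, and the transcription factors Otx2, Pou3f1, Zic2, Sox3, Sox4 and Foxd3, which are transcribed in the epiblast around implantation. They were chosen by symbol, with earlier results of these data known. All 7 of the 7 symbols were present among the 32286 features of both single-cell RNA sequencing libraries. One library held mouse embryonic stem cells (ESCs, 0 h) and the other held epiblast-like cells taken 48 h into differentiation (48h-EpiLCs). In each, cells of a wild-type (WT) line with the ROSAmT/mG reporter, which transcribes tdTomato, had been mixed in equal number with cells of a Cnot8 knockout (KO) line, all of ICR strain. The Cnot8 protein removes poly(A) tails from mRNAs as an enzyme subunit of Ccr4-Not.

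ESCs had been grown on feeders in serum/LIF, and EpiLCs in N2B27 medium on Matrigel, to which bFGF, KSR and activin A were added. By the methods of the study the KO line came from blastocysts of heterozygous parents, after Cas9 cutting of exon 2, and EpiLCs are formed from ESCs in 2i/LIF, so that medium, stage and library cannot be told apart. The sample labels give the genotype of both mixed libraries as wild type, and a cell had therefore to be assigned to a line by its own transcripts. A cell was called WT-classified when it held at least 1 UMI (unique molecular identifier, 1 counted mRNA molecule) of tdTomato and 0 UMIs of the Y-linked genes Ddx3y, Eif2s3y, Kdm5d and Uty. It was called KO-classified when it held 0 tdTomato UMIs and at least 2 Y-linked UMIs. Cells with fewer than 1000 genes, or with over 10% of UMIs from mitochondrial genes, were left out.

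This gave 435 WT-classified and 2978 KO-classified ESCs among 11054 kept cells, and 368 WT-classified and 2977 KO-classified 48h-EpiLCs among 9400. The classes held 6154790, 44110356, 6219834 and 59291903 UMIs, with median depths between 13151 and 17628 UMIs per cell, and at least 4 of 6 pluripotency markers were detected in 433, 2932, 366 and 2960 of their cells. Cells that met neither definition numbered 7641 and 6055, and the libraries shared 41 barcodes. With 1 library per stage, and since cells cannot stand as replicates, the values carry no test, and each interval covers counting error only. Besides genotype, the lines may differ in their sex-linked transcripts, and the KO line goes back to a picked colony. The Y-linked difference between the classes is fixed by the rule that defines them. Among kept ESCs with a tdTomato UMI, 435 held 0 Y-linked UMIs, 47 held 1 and 35 held at least 2. In 48h-EpiLCs these numbers were 368, 49 and 35. Cnot8 RNA was not lower in KO-classified cells (72.1 CPM against 43.1 CPM at 0 h, 62.6 CPM against 49.7 CPM at 48 h; CPM is UMIs per 1000000 UMIs of the class). An edited exon can leave the RNA level of a gene as it was, so this is no check of the genotype. Genotype, line and sex-linked transcripts cannot be told apart in the differences between lines. Cells with at least 4 of 9 feeder fibroblast markers numbered 57 in KO-classified and 1 in WT-classified ESCs, and none were found in either class of 48h-EpiLCs. At least 4 of 10 primitive endoderm markers were found in 74, 5, 1 and 0 cells of KO-classified and WT-classified ESCs and of KO-classified and WT-classified 48h-EpiLCs.

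When the epiblast implants, its cells pass from naive pluripotency to a formative state in which they become able to respond to signals for the germ layers and the germ line. Otx2 helps to move enhancer activity from naive to formative genes, Pou3f1 (also called Oct6) and Zic2 act at enhancers of the later epiblast, Foxd3 is needed for the exit from the naive state and for epiblast survival, and Sox3 is a close relative of Sox2. Fgf5 is the usual marker of EpiLCs, and FGF signalling through ERK drives the transition.

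The promoters of Fgf5 and Foxd3 are shown because these genes had the most opposite changes between stages, the one nearly absent from ESCs and the other more abundant there. Each line is the 250 bases before the RefSeq start (GRCm38.p6), 5′ to 3′ on the plus strand, at chr5:98253934-98254183 for Fgf5 and chr4:99656049-99656298 for Foxd3. Capitals mark a match to a GC box, and no other motif searched was found.
Fgf5: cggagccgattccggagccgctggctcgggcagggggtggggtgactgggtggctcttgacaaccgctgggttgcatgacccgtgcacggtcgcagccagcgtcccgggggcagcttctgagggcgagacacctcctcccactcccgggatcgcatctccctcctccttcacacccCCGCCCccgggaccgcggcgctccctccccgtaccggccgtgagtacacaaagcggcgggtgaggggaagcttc
Foxd3: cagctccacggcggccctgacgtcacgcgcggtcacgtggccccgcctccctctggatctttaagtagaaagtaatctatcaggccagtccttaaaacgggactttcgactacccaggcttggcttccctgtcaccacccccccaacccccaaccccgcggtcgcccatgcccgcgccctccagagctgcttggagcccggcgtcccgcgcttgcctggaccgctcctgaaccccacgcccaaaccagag

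The motifs searched on both strands were a TATA box (TATAAA, in 12.4% of all 32851 windows of this length), a CCAAT box (CCAAT, 33.8%), a GC box (GGGCGG, 32.7%), an OTX site (TAATCC, 6.25%), a POU octamer (atgcaaat, 1.6%) and a SOX core (CATTGT, 10.7%). None of these overlaps another in the windows printed. The Fgf5 window held 70.8% G and C and 24 CG dinucleotides, and the Foxd3 window 65.6% and 21, against medians of 52.4% and 6 over all windows. Windows were at hand for 4 of the 7 genes, 4 of them for the separate starts of Otx2, and 1 of these Otx2 windows held the OTX letters. The Sox4 window held the CCAAT letters 4 times.

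Fgf5, the ligand, lies on chromosome 5 (98254184 to 98277030, plus strand, GRCm38) and was nearly absent from ESCs. Its level was 2.76 CPM (exact 95% Poisson interval 1.61 to 4.42) in WT-classified and 1.29 CPM (0.979 to 1.67) in KO-classified ESCs, and 53.4 CPM (47.8 to 59.4) and 35.9 CPM (34.4 to 37.5) in 48h-EpiLCs. This was 19.3-fold higher (11.9 to 33.6) in WT-classified and 27.8-fold higher (21.4 to 36.8) in KO-classified 48h-EpiLCs than in ESCs. Among all genes of at least 5 CPM on average, Fgf5 had the 4th highest ratio of 9242 in WT-classified cells and the highest of 9478 in KO-classified cells. At least 1 Fgf5 UMI was seen in 3.22% of WT-classified and 1.71% of KO-classified ESCs and in 50% and 38.0% of 48h-EpiLCs. After each cell was thinned to 5000 UMIs, which leaves out between 1 and 23 shallower cells of a class, these shares were 1.38%, 0.474%, 19.1% and 13.1%. Feeder-marked cells of the ESC library, which should lack the gene, held an Fgf5 UMI in 1.67% of 180 cells (0.345% to 4.79%) at a median of 14122.5 UMIs, so that the interval of the background includes the shares of both ESC classes. A UMI of the pluripotency gene Pou5f1 was found in 32.8% of the same 180 cells. They are thus not a clean background for Fgf5 or for the genes below. The 48h-EpiLC library held 1 feeder-marked cell and gives no such background.

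Otx2, on chromosome 14 (48657677 to 48673819, minus strand), encodes a homeodomain factor. Its levels were 19.2 CPM (15.9 to 23.0) and 12.4 CPM (11.4 to 13.5) in WT-classified and KO-classified ESCs, and 52.3 CPM (46.7 to 58.3) and 46.3 CPM (44.6 to 48.1) in 48h-EpiLCs. It was thus present in ESCs and 2.73-fold (2.20 to 3.39) and 3.74-fold (3.41 to 4.11) higher in 48h-EpiLCs. An Otx2 UMI was detected in 20.5% and 14.2% of ESCs and in 48.4% and 46.5% of 48h-EpiLCs, or 10.1%, 5.65%, 18.3% and 18.8% after thinning. Feeder-marked cells held one in 5.00% before and 1.75% after thinning. Otx2os1, on the opposite strand of the same locus, gave at most 16 UMIs in any class.

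Pou3f1, on chromosome 4 (124656807 to 124660655, plus strand), encodes a POU-domain factor. It was at 68.1 CPM (61.7 to 74.9) and 78.7 CPM (76.1 to 81.4) in WT-classified and KO-classified ESCs, and at 436 CPM (420 to 453) and 382 CPM (377 to 387) in 48h-EpiLCs. The ratio between stages was 6.4-fold (5.77 to 7.11) in WT-classified and 4.85-fold (4.68 to 5.03) in KO-classified cells. Pou3f1 was detected in 45.1% and 49.4% of ESCs, against 18.3% of feeder-marked cells, and in 94.6% and 94.4% of 48h-EpiLCs. With 5000 UMIs per cell it was still found in 80.9% and 76.6% of 48h-EpiLCs and in 23.3% and 26.0% of ESCs. In 48h-EpiLCs it reached 5 or more of those 5000 UMIs in 11.7% of WT-classified and 8.22% of KO-classified cells, against 0.23% and 0.169% of ESCs.

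Zic2 (chromosome 14, 122475435 to 122479852, plus strand), a zinc finger factor, and Sox3 (chromosome X, 60891366 to 60893430, minus strand), an HMG box factor, were low in ESCs. Zic2 was at 11.5 CPM (9.01 to 14.6) and 8.55 CPM (7.71 to 9.45) in WT-classified and KO-classified ESCs, and at 36.5 CPM (31.9 to 41.6) and 23.6 CPM (22.4 to 24.9) in 48h-EpiLCs, which is 3.16-fold (2.41 to 4.19) and 2.76-fold (2.46 to 3.10) higher. Sox3 was at 8.77 CPM (6.59 to 11.4) and 4.26 CPM (3.67 to 4.92) in ESCs, and at 23.6 CPM (20.0 to 27.8) and 12.1 CPM (11.3 to 13.1) in 48h-EpiLCs, or 2.69-fold (1.96 to 3.75) and 2.85-fold (2.42 to 3.36) higher. For both genes WT-classified cells had higher levels than KO-classified cells at each stage. Zic2 was detected in 14.0% and 10.4% of ESCs and 40.2% and 32.0% of 48h-EpiLCs, and after thinning in 5.76%, 3.99%, 14.7% and 10.5%. Sox3 was detected in 10.6% and 5.81% of ESCs and 33.4% and 18.8% of 48h-EpiLCs, and after thinning in 4.15%, 1.96%, 11.2% and 5.93%. In feeder-marked cells the unthinned shares were 6.11% (3.09% to 10.7%) for Zic2 and 3.89% (1.58% to 7.85%) for Sox3, so that both intervals include the share of KO-classified ESCs and lie below that of WT-classified ESCs.

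Sox4 (chromosome 13, 28948919 to 28953713, minus strand), an HMG box factor of another SOX group, was at 36.6 CPM (31.9 to 41.7) and 37.3 CPM (35.5 to 39.2) in WT-classified and KO-classified ESCs. In 48h-EpiLCs it was at 66.2 CPM (60.0 to 73.0) and 55.2 CPM (53.3 to 57.1). The ratio between stages was 1.81-fold (1.54 to 2.14) and 1.48-fold (1.39 to 1.57). Feeder-marked cells held Sox4 at 387 CPM, with a UMI in 88.9% of them, so that they offer no background for this gene. Without the cells that carried markers of other cell types, the log2 ratio between stages in KO-classified cells was 0.93 in place of 0.57. Sox4 was detected in 35.4% and 30.6% of ESCs and in 59.8% and 55.8% of 48h-EpiLCs, and after thinning in 15.9%, 13.7%, 30% and 23.3%.

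Foxd3 (chromosome 4, 99656299 to 99658622, plus strand), a forkhead factor, was the one gene of the 7 that was lower in 48h-EpiLCs. Its levels were 34.8 CPM (30.3 to 39.8) and 31.2 CPM (29.6 to 32.9) in WT-classified and KO-classified ESCs, and 20.4 CPM (17.0 to 24.3) and 21.8 CPM (20.6 to 23.0) in 48h-EpiLCs. This is 1.70-fold (1.36 to 2.14) and 1.43-fold (1.33 to 1.55) lower. The share of cells with a Foxd3 UMI was 30.8% and 30% at 0 h and 22.8% and 28.2% at 48 h, against 12.8% of feeder-marked cells. After thinning it was 16.4%, 13.9%, 8.99% and 9.0%, against 3.51% of feeder-marked cells.

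**Figure D1:**
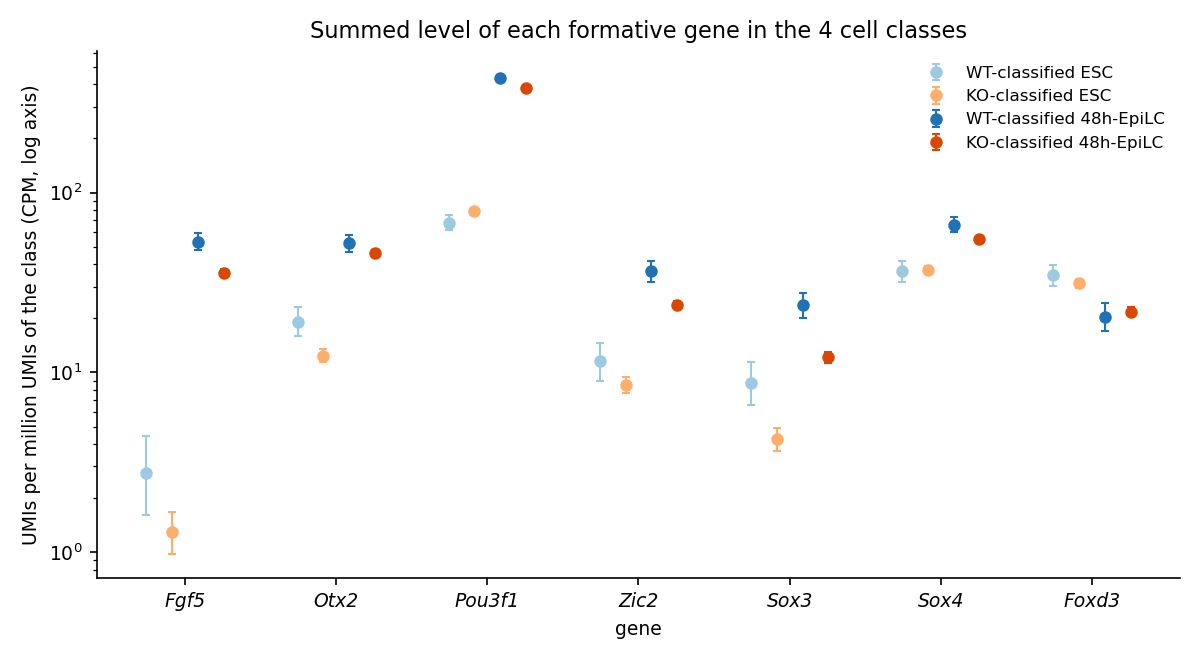
Level of each gene in the 4 cell classes, in CPM on a log axis, with exact 95% Poisson intervals. For 6 genes both 48h-EpiLC classes lie above both ESC classes, from 1.29 CPM up to 53.4 CPM for Fgf5, and for Foxd3 they lie below.

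Between stages, 5 of the 7 genes (Otx2, Pou3f1, Fgf5, Zic2 and Sox3) were at least 2-fold higher in 48h-EpiLCs in WT-classified cells, where 5.63% of all 9242 genes were. In KO-classified cells it was again 5 of 7, against 3.18% of 9478 genes. None of the 7 was at least 2-fold lower, against 5.29% and 4.54% of all genes. Since the 7 were chosen with earlier results of these data known, these shares are a description and no test. Nearest to the threshold on the inside was Sox3, at 2.69-fold in WT-classified cells, and on the outside Sox4, at 1.81-fold. The median log2 ratio of the 7 genes was 1.45 in WT-classified and 1.51 in KO-classified cells, beside 0.03 and -0.02 over all genes.

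The size of the change was also set side by side between lines, as the log2 ratio in KO-classified minus that in WT-classified cells. The difference was 0.46 (0.13 to 0.79) for Otx2, which started lower in KO-classified ESCs, and -0.40 (-0.56 to -0.24) for Pou3f1. For Sox4 it was -0.29 (-0.54 to -0.04). This value depends on the cells kept. Without the cells that carried markers of other cell types, the Sox4 ratio in KO-classified cells was 0.93 in place of 0.57. In WT-classified cells, with all cells kept, it was 0.86. The intervals for Fgf5 (-0.28 to 1.32), Foxd3 (-0.09 to 0.58), Sox3 (-0.43 to 0.59) and Zic2 (-0.61 to 0.22) include 0, and they are wide enough to hold differences of some size.

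**Figure D2:**
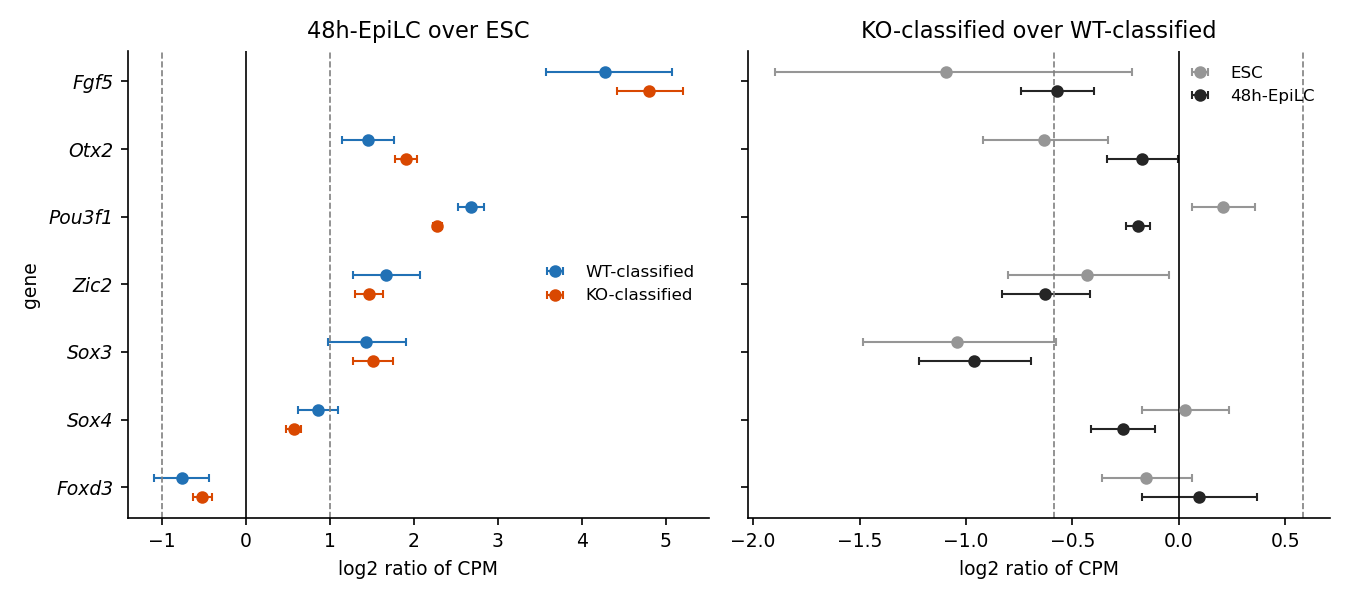
Left, log2 ratio of CPM in 48h-EpiLCs over ESCs for each gene in WT-classified and KO-classified cells, with dashed lines at 2-fold. Right, log2 ratio of KO-classified over WT-classified cells at each stage, with dashed lines at 1.5-fold; bars are exact 95% counting intervals. Fgf5 has the highest ratios between stages (4.27 and 4.80), Foxd3 lies below 0 in both lines, and between lines Fgf5 in ESCs (-1.10, under the minimum level for counting) and Sox3 (-1.04 and -0.96) lie furthest below 0.

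Between lines, no gene of the 7 was at least 1.5-fold higher in KO-classified cells at either stage, where 13.9% (ESCs) and 9.04% (48h-EpiLCs) of all genes were. In ESCs 2 of the 6 genes with at least 5 CPM on average were at least 1.5-fold lower, against 5.61% of all 9277 genes, and in 48h-EpiLCs 2 of 7, against 4.95% of 9385. Fgf5 was under that minimum at 0 h. Over the members counted the log2 ratios had a median of -0.29 in ESCs and -0.26 in 48h-EpiLCs, beside 0.13 and 0.08 over all genes. Sox3 was 2.06-fold lower (1.49 to 2.80) in KO-classified ESCs and 1.95-fold lower (1.62 to 2.33) in 48h-EpiLCs. Otx2 was 1.55-fold lower (1.26 to 1.89) in ESCs and 1.13-fold lower (1.00 to 1.27) in 48h-EpiLCs. With WT cells defined by 0 Y-linked UMIs, with at least 4 Y-linked UMIs for KO cells, or with at most 5% mitochondrial UMIs, Otx2 was no longer past 1.5-fold in ESCs (log2 ratios of -0.35, -0.47 and -0.47). Zic2 was 1.35-fold lower (1.03 to 1.74) in ESCs and 1.55-fold lower (1.34 to 1.78) in 48h-EpiLCs, and in the latter it was inside 1.5-fold under other definitions of the lines (log2 ratios of -0.49 to -0.58). Just outside the threshold was Fgf5 in 48h-EpiLCs, 1.49-fold lower (1.32 to 1.67), with 13.1% (11.9% to 14.4%) of thinned KO-classified cells holding a UMI against 19.1% (15.2% to 23.5%) of WT-classified cells. Its log2 ratio of -0.57 went past 1.5-fold with TMM scaling (-0.62), among other settings.

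The other ratios between lines were smaller. Pou3f1 was 1.16-fold higher (1.04 to 1.28) in KO-classified ESCs and 1.14-fold lower (1.10 to 1.19) in 48h-EpiLCs. The log2 ratio of Foxd3 was -0.15 (-0.36 to 0.06) in ESCs and 0.09 (-0.17 to 0.37) in 48h-EpiLCs, both with intervals that include 0. It turned to 0.15 in ESCs with WT cells defined by 0 Y-linked UMIs, and to -0.05 in 48h-EpiLCs with cells thinned to 5000 UMIs. Sox4 was at a log2 ratio of 0.03 in ESCs, and at -0.33 without the cells that carried markers of other cell types. TMM scaling moved the median of all genes to 0.03 at both stages. Relative to the median of all genes the ESC value of Pou3f1 is therefore nearer to 0, and that of Sox4 turned to -0.07 with TMM scaling.

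Sox3 is the X-linked gene among the 7. At 0 h the median log2 ratio between the lines, KO-classified over WT-classified, was -0.03 over 300 X-linked genes and 0.13 over 8955 autosomal genes, and in 48h-EpiLCs it was -0.01 over 316 and 0.08 over 9046. The ratio of Sox3 was as low or lower in 16 X-linked genes in ESCs (5.33%, itself included) and in 17 in 48h-EpiLCs (5.38%). At least 1.5-fold lower were 13.7% and 12.7% of X-linked genes, against 5.30% and 4.67% of autosomal genes. The part of sex-linked dosage in the value of Sox3 was not tested.

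In single cells the number of the 7 genes with at least 1 UMI was counted at 5000 UMIs per cell. On average 0.77 ± 0.04 (SE over cells, n = 434 cells) of the 7 were detected in WT-classified ESCs and 0.66 ± 0.01 (n = 2955) in KO-classified ESCs. In 48h-EpiLCs the means were 1.83 ± 0.06 (n = 367) and 1.57 ± 0.02 (n = 2968). At least 2 of the genes were found together in 17.3% and 13.9% of ESCs and in 57.2% and 48.2% of 48h-EpiLCs. None of the 7 was found in 45.2% and 50.1% of ESCs and in 7.90% and 12.0% of 48h-EpiLCs. At least 5 genes were seen in 5 WT-classified and 17 KO-classified 48h-EpiLCs, and no cell of any class held all 7.

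The counts per cell were a little more spread than if each gene had been detected independently of the others. The variance was 1.22 and 1.16 times that of independent detection in WT-classified and KO-classified 48h-EpiLCs, and 1.14 and 1.06 times in ESCs. No value for another set of genes is set beside these. For KO-classified 48h-EpiLCs, 12.0% of cells held none of the genes where the product of the single shares gives 9.71%, and 0.573% held 5 or more where it gives 0.247%. The same comparison in WT-classified 48h-EpiLCs was 7.90% against 6.09%, and 1.36% (exact binomial interval 0.44% to 3.15%) against 0.67%.

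**Figure D3:**
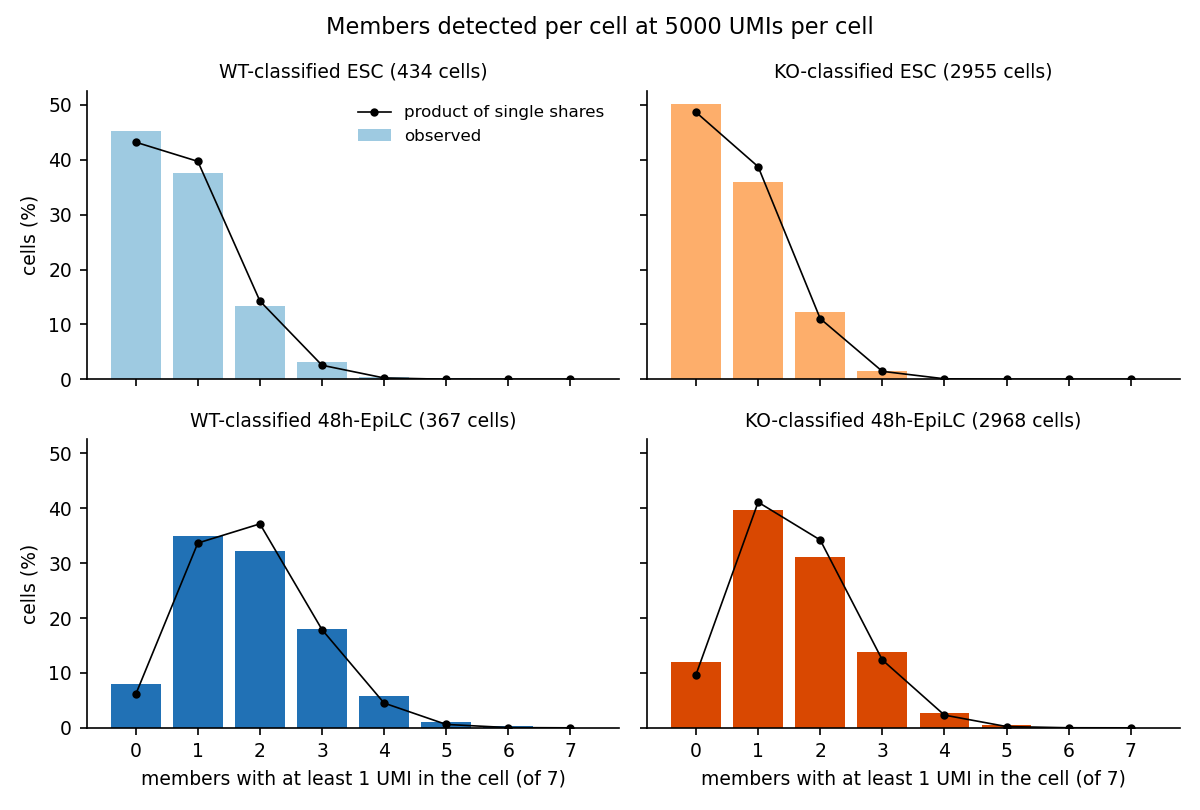
Share of cells, in percent, by the number of the 7 genes with at least 1 UMI, in each class at 5000 UMIs per cell. Bars are observed shares and the black line is the product of the single shares; most ESCs hold 0 or 1 of the genes (82.7% and 86.1%), against 42.8% and 51.8% of 48h-EpiLCs.

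Co-detection was then examined for each of the 21 pairs. The co-detection ratio is the share of cells with both genes over the product of their single shares, so that 1 stands for independent detection. In KO-classified 48h-EpiLCs it was above 1 for 19 of the 21 pairs, with a median of 1.10 and a range of 0.821 to 1.60, and in WT-classified 48h-EpiLCs for 16 of 21, with a median of 1.09. Independence gives at least 10 cells for all 21 pairs in KO-classified but for 12 in WT-classified 48h-EpiLCs, and 10 of those 12 were above 1. Under other settings the counts above 1 went from 17 to 20 in KO-classified and from 12 to 18 in WT-classified cells. No count over other gene pairs is set beside these. The interval lay wholly above 1 for 2 pairs in KO-classified 48h-EpiLCs and for no pair in WT-classified 48h-EpiLCs. Neither class had a pair with an interval wholly below 1. The correlation of log2(UMIs + 1) across cells was weak for each pair, between -0.01 and 0.10 over 2968 KO-classified and between -0.06 and 0.14 over 367 WT-classified 48h-EpiLCs, at 1 depth and within 1 library, and such values in sparse counts are no finding.

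The 2 pairs both involved Fgf5. Otx2 and Fgf5 were found together in 98 KO-classified 48h-EpiLCs where independence gives 73.0, a ratio of 1.34 (1.09 to 1.63). Fgf5 was thus detected in 17.6% of cells with and 12.1% of cells without an Otx2 UMI. Fgf5 and Sox3 were found together in 37 cells against 23.1, a ratio of 1.60 (1.13 to 2.21), which was 1.11 at 3000 UMIs per cell and 2.27 when KO-classified cells needed at least 4 Y-linked UMIs. In WT-classified cells the ratios were 1.10 (0.60 to 1.81) for Otx2 and Fgf5 and 0.639 (0.208 to 1.48) for Fgf5 and Sox3. Of Pou3f1 and Fgf5, found in 326 KO-classified 48h-EpiLCs against 298, the ratio was 1.09 (0.98 to 1.21).

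**Figure D4:**
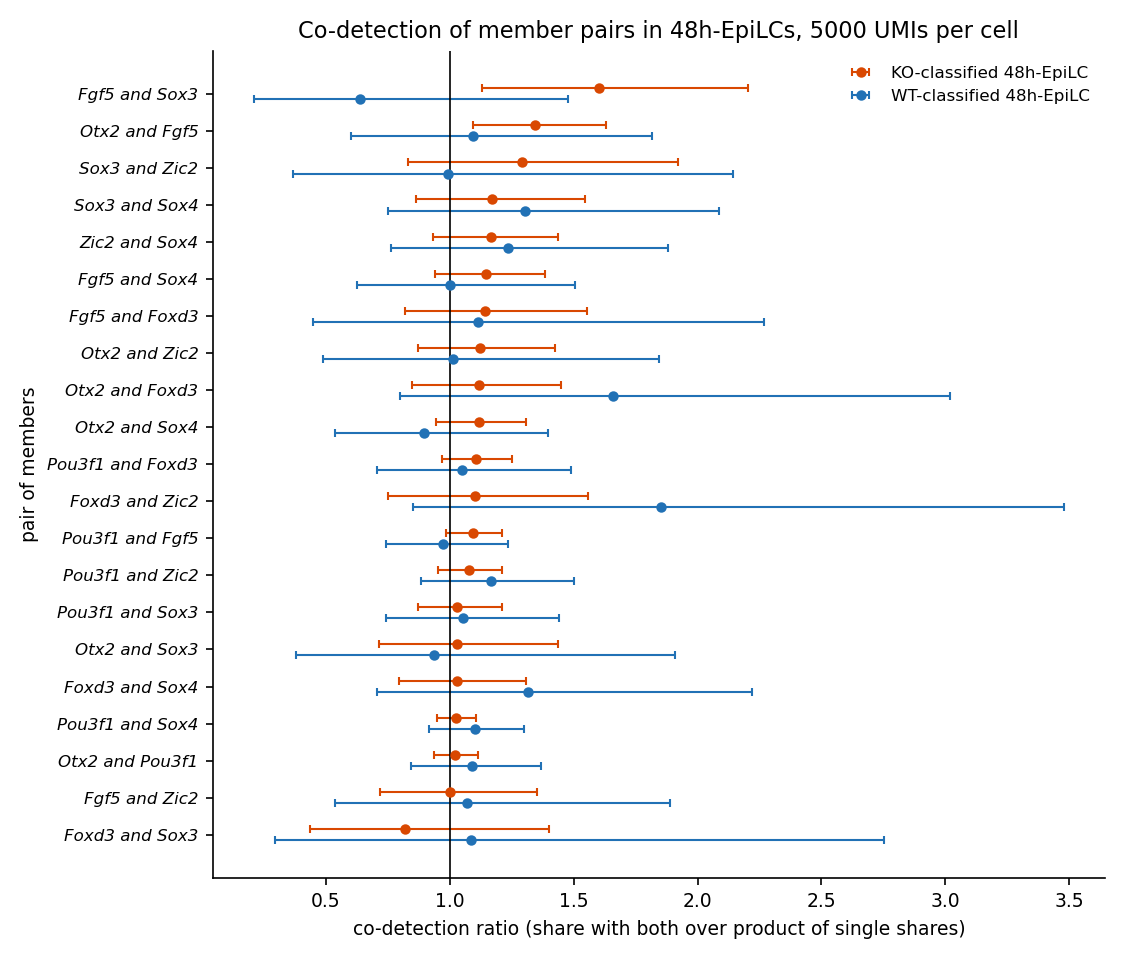
Co-detection ratio of each of the 21 gene pairs in KO-classified and WT-classified 48h-EpiLCs at 5000 UMIs per cell, with exact 95% binomial intervals of the share with both genes divided by the product of the single shares. The vertical line at 1 is independent detection; most points lie to its right and 2 intervals, both in KO-classified cells, lie wholly above it.

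In ESCs the pairs were sparser, and only those for which independence gives at least 10 cells are described. Of these, 2 of 4 in WT-classified and 8 of 10 in KO-classified ESCs had a ratio above 1. Otx2 and Pou3f1 were found together in 18 WT-classified ESCs against 10.2 (ratio 1.76, 1.05 to 2.74) and in 58 KO-classified ESCs against 43.3 (1.34, 1.02 to 1.72). In 48h-EpiLCs, where Pou3f1 was in most cells, the ratios of this pair were 1.09 (0.84 to 1.37) and 1.02 (0.94 to 1.11).

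Pou3f1 was abundant enough to sort the cells by its own UMIs. In KO-classified 48h-EpiLCs, Fgf5 was detected in 9.06% (7.04% to 11.4%) of the 695 cells with 0 Pou3f1 UMIs and in 20.9% (16.0% to 26.5%) of the 244 cells with at least 5. Over the same range Zic2 went from 7.91% (6.02% to 10.2%) to 16.4% (12.0% to 21.6%) and Foxd3 from 5.90% (4.27% to 7.92%) to 12.3% (8.45% to 17.1%). The shares of Otx2 (17.4% and 21.7%), Sox4 (21.4% and 25.8%) and Sox3 (5.32% and 5.74%) had overlapping intervals. In WT-classified 48h-EpiLCs, with 70 and 43 cells at these ends, Fgf5 was detected in 21.4% and 18.6%, Otx2 in 11.4% (5.07% to 21.3%) and 34.9% (21% to 50.9%), and Zic2 in 4.29% and 16.3%. Foxd3 was detected in 7.14% and 16.3% of them, Sox4 in 17.1% and 30.2%, and Sox3 in 8.57% and 6.98%. For each of these genes the intervals at the ends overlapped.

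Some naive genes ran the other way in the same KO-classified cells. Zfp42 (Rex1), a zinc finger gene of naive cells, was detected in 44.0% of cells with 0 and 20.5% of cells with at least 5 Pou3f1 UMIs, Klf2 in 35.7% and 23.4%, and Nanog in 10.5% and 3.28%. The intervals overlapped for Esrrb (6.04% and 3.28%), Tfcp2l1 (4.75% and 1.64%) and Klf4 (2.73% and 3.28%). In WT-classified 48h-EpiLCs the shares at these ends were 21.4% and 11.6% for Zfp42, 12.9% and 11.6% for Nanog and 12.9% and 20.9% for Klf2, with wide and overlapping intervals. Over the 28 pairs of one of the 7 genes with Nanog, Zfp42, Klf2 or Esrrb, the co-detection ratio was below 1 for 23, with a median of 0.92. Here too no count over other gene pairs is given. The interval of the ratio lay wholly below 1 for 5 pairs, which were Pou3f1, Fgf5 and Zic2 with Zfp42, Fgf5 with Klf2, and Foxd3 with Esrrb. Fgf5 was found in 8.63% of cells with and 15.1% of cells without a Klf2 UMI (ratio 0.659, 0.523 to 0.818). In WT-classified 48h-EpiLCs 17 of 28 ratios were below 1 and every interval included 1, with 8 of the 28 pairs at 10 or more cells under independence. Among the same 28 pairs in KO-classified ESCs, 16 ratios were below 1, the median was 0.994, and 1 interval lay apart from 1. This was the pair of Foxd3 and Nanog, found together in 125 cells against 91.6 (ratio 1.37, 1.14 to 1.62). Foxd3 was found there in 18.9% of cells with and 12.4% of cells without a Nanog UMI. In WT-classified ESCs every one of the 28 intervals included 1.

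**Figure D5:**
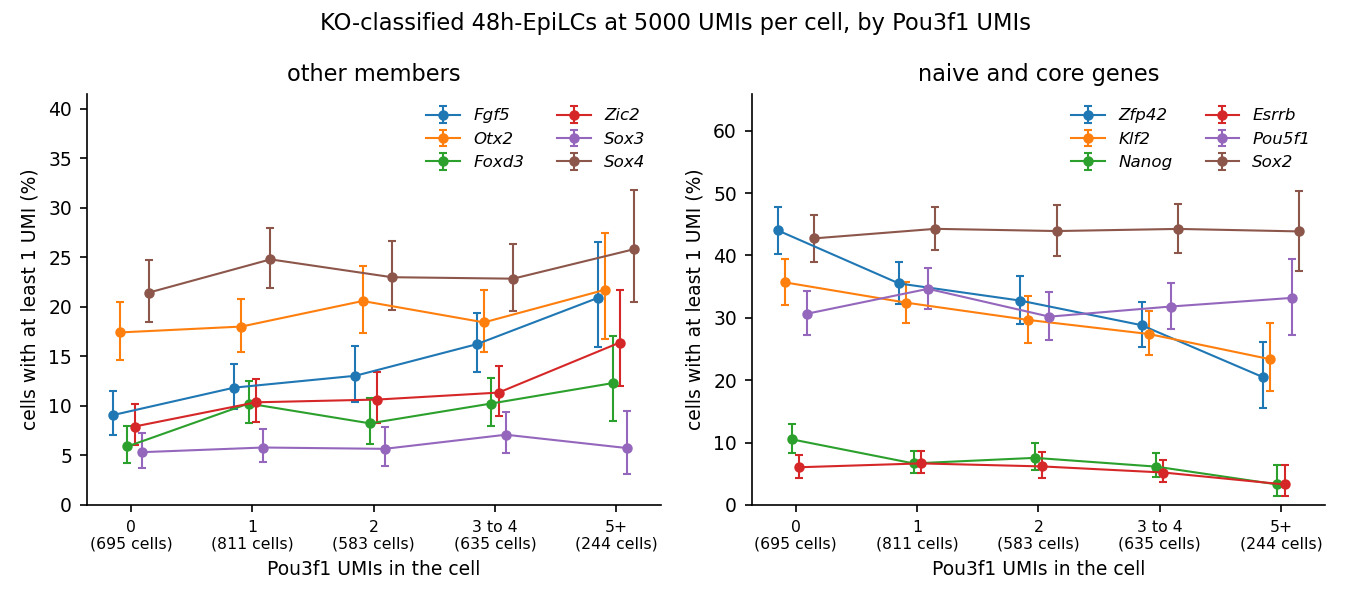
Share of KO-classified 48h-EpiLCs with at least 1 UMI of each gene, in percent with exact 95% binomial intervals, by the number of Pou3f1 UMIs in the cell (5000 UMIs per cell). Fgf5, Zic2 and Foxd3 are more often detected in cells with at least 5 Pou3f1 UMIs than in cells with 0, and Zfp42, Klf2 and Nanog less often.

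Variation between cells was also read from the Fano factor, the variance of the thinned UMIs over their mean, which is near 1 for pure counting noise. The median over all genes of sufficient level was between 1.02 and 1.03 in the 4 classes. Pou3f1 had Fano factors of 1.58 and 1.51 in WT-classified and KO-classified ESCs and 1.86 and 1.66 in 48h-EpiLCs, above those of at least 97.5% of genes in each class. The genes in this ranking were not matched for level. Otx2 was at 1.56 and 1.27 in 48h-EpiLCs, and Fgf5 at 1.20 and 1.23. The WT-classified value of Otx2 rests in part on 2 of 367 cells with 5 or more UMIs, where 300 cells held 0. Sox4 was at 1.95 in KO-classified ESCs and between 1.10 and 1.19 in the other classes, and KO-classified ESCs were also the class with the most feeder-marked cells.

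The genes whose UMIs followed those of a member most closely were sought in 2968 KO-classified 48h-EpiLCs, over 7542 genes detected in at least 5% of them. The likeness was weak throughout. For Pou3f1 the highest values of r were with Dnmt3b (0.14), Ldha (0.14) and Ptma (0.13), and for Fgf5 with Dnmt3b (0.11), Stx3 (0.11) and Pou3f1 (0.10). Dnmt3b encodes a DNA methyltransferase that is itself a formative marker, yet in 367 WT-classified cells its r was -0.02 with Pou3f1 and 0.01 with Fgf5. The highest r of Otx2 was 0.09 with Myrf, and of Foxd3, Sox3, Zic2 and Sox4 between 0.07 and 0.08 with Slc23a1, Pcyox1l, Lefty1 and Lamb1. In WT-classified cells the r of these 5 pairs was -0.07, -0.02, 0.02, -0.01 and -0.02. There Pou3f1 had an r of 0.22 with Ldha and 0.002 with Ptma, and Fgf5 0.01 with Stx3 and 0.04 with Pou3f1. All these cells come from 1 library and share its depth and culture.

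Other genes of the same process were followed by list, here and in the next paragraph. Of all genes, 5.63% were at least 2-fold higher and 5.29% lower between stages in WT-classified cells. In KO-classified cells these shares were 3.18% and 4.54%. Between lines, 13.9% of all genes were at least 1.5-fold higher and 5.61% lower in KO-classified ESCs, and 9.04% and 4.95% in 48h-EpiLCs. Of 18 other formative genes, 17 had sufficient level in WT-classified cells, and 6 were at least 2-fold higher in 48h-EpiLCs, led by Fgf8 (10.1-fold, 4.91 to 24.3), another FGF ligand, and the kinase gene Pim2 (7.63-fold). None of these 17 was 2-fold lower. In KO-classified cells 4 of 16 were higher, led by Sall2 (7.40-fold, 5.84 to 9.50) and Pim2 (5.45-fold), and Etv4 was 2.01-fold lower. Between lines, 5 of 15 were at least 1.5-fold lower in KO-classified ESCs and 6 of 17 in 48h-EpiLCs. None was higher by that fold in KO-classified ESCs, and 1 was in 48h-EpiLCs, Dnmt3a (287 CPM against 177 CPM). Tcf15, a bHLH factor of early epiblast, was 4.54-fold and 3.45-fold lower. The SoxC gene Sox11, a close relative of Sox4, was 3.00-fold and 2.87-fold lower, whereas Sox4 itself was at ratios of 1.02 and 0.834.

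Around the ligand Fgf5, 11 of 13 FGF receptor and ERK feedback genes had sufficient level between stages, and 2 were at least 2-fold higher in 48h-EpiLCs of both lines, the phosphatase gene Dusp4 (2.76-fold and 2.01-fold) and Spry1 (2.03-fold and 2.12-fold). Spry4, another feedback inhibitor, was 1.70-fold lower in WT-classified and 2.32-fold lower in KO-classified 48h-EpiLCs. Of 12 naive genes, 11 were at least 2-fold lower in 48h-EpiLCs of both lines, and the other, Dppa3, was 1.33-fold higher in WT-classified and 3.76-fold higher in KO-classified 48h-EpiLCs. Among 18 relatives of the members by gene family, 6 had sufficient level, and Zic5, a paralogue of Zic2, was higher in both lines (2.31-fold and 3.52-fold). Sox15 was at least 2-fold lower in WT-classified 48h-EpiLCs. Between lines it was at least 1.5-fold higher in KO-classified cells at both stages. Between lines, Dusp4 and Spred2 were higher and Fgf4 lower in KO-classified ESCs, and Dusp4 was higher and Spry4 and Fgf4 lower in KO-classified 48h-EpiLCs. Of the naive genes with sufficient level in 48h-EpiLCs, 5 of 8 were at least 1.5-fold higher in KO-classified cells, Zfp42, Klf2 and Esrrb among them, and 2 were lower, Nanog and Klf4. Of the 3 core genes, Sox2 was at least 2-fold lower in WT-classified and Sall4 in KO-classified 48h-EpiLCs, and none differed by 1.5-fold between lines. The median log2 ratio between stages was 0.35 and 0.64 for the other formative genes in WT-classified and KO-classified cells, 0.18 and 0.17 for the FGF and ERK genes, -3.57 and -2.44 for the naive genes, -0.81 and -0.88 for the core genes, and 0.31 and 0.27 for the relatives.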

How the data were processed

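Single-cell libraries of ESCs and 48h-EpiLCs, 1 per stage, each a mixture of both lines, were analysed from the deposited UMI counts. Per the methods and the submitters' processing notes, the authors made these counts with Cell Ranger 3.0.2 at default settings on mm10 with the tdTomato coding sequence added, and whether counting used the strand is not given in the sources used here. The libraries held 13184 and 12427 barcodes, with 144584246 and 163771168 UMIs. Gene positions came from GENCODE M21, which matched 32235 of 32286 features, and promoter sequences from RefSeq (GRCm38.p6).

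UMIs were summed over each class of cells. Levels have exact Poisson intervals, ratios an exact interval conditional on the sum of both counts, and shares of cells Clopper-Pearson intervals, all at 95%. Intervals for the difference in induction use the delta method. Ratios were counted over all genes with a mean of at least 5 CPM. Shares, co-detection and Fano factors (genes with at least 0.05 UMIs per thinned cell) used cells thinned to 5000 UMIs. Scrublet (scanpy 1.11.5) marked 568 ESCs and 0 48h-EpiLCs, so it had not worked in the latter. No doublets were removed, and leaving out the 10% of cells with the highest doublet scores was an alternative. TMM factors (edgeR 4.0.16) and median-of-ratios factors (DESeq2 1.42.0) served only as other scalings. Other software was Python 3.11.15, numpy 2.4.6, scipy 1.17.1, pandas 2.3.3 and R 4.3.3. Scripts were checked on simulated data.

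Genes named beside the 7 were, in each list, those past the fold or with the largest ratios, the label checks, the naive genes used for co-detection, and the genes of highest r. The members and lists were chosen with earlier results of these data known.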

Additional observations from a re-analysis of the deposited data

How the results depend on the processing

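No paired analysis was possible because each stage is 1 library and no result comes from a test. For the same reason no replicate could be left out. The number of genes at least 2-fold higher in 48h-EpiLCs was 5 in KO-classified cells under each alternative, and in WT-classified cells under each but 1. With cells thinned to 5000 UMIs it was 6, as Sox4 reached a log2 ratio of 1.09. It was also 5 over all kept cells with the line ignored, an alternative chosen after seeing the data. The number of genes past 1.5-fold between lines went from 2 to 1 in ESCs when WT cells were defined by 0 Y-linked UMIs at a depth of at least 5000 UMIs, when KO cells needed at least 4 Y-linked UMIs, and with at most 5% mitochondrial UMIs, each time without Otx2, and to 3 with no minimum CPM, which added Fgf5. In 48h-EpiLCs it went from 2 to 1 when WT cells were defined by tdTomato alone or by 0 Y-linked UMIs, and when KO cells needed at least 1 Y-linked UMI, each time without Zic2. It went to 3, with Fgf5 (log2 ratios of -0.59 to -0.65), when KO cells needed at least 4 Y-linked UMIs, with at most 5% mitochondrial UMIs, without the cells of highest doublet score, with either other scaling, with each cell weighed the same and with thinned cells. The cause was not tested.

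The mean number of the 7 genes detected per cell followed the depth to which cells were thinned. At 3000 UMIs it was 0.485 and 0.422 in WT-classified and KO-classified ESCs and 1.38 and 1.16 in 48h-EpiLCs, and at 8000 UMIs it was 0.993, 0.936, 2.47 and 2.08. It was 0.697 in KO-classified ESCs that held at least 4 Y-linked UMIs. Of 392 alternative log2 ratios of single genes 16 moved beyond the counting interval, as did 8 of 462 co-detection ratios. No log2 ratio past its fold, and no co-detection ratio with an interval apart from 1, changed direction. Among values inside those limits the sign did change for Sox4 between lines in ESCs (0.03, with alternatives from -0.33 to 0.18), for Foxd3 in ESCs (-0.15, from -0.28 to 0.15) and for Foxd3 in 48h-EpiLCs (0.09, from -0.05 to 0.17).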
